A study of Mus musculus with 15 samples.

Results

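The replication-dependent histone genes of the mouse were taken from the deposited count table as every protein-coding gene whose symbol begins with Hist1h, Hist2h, Hist3h or Hist4h. This gave 67 of the 55536 genes in the table, namely 6 for the linker histone H1 and, for the core histones, 18 for H2A, 18 for H2B, 12 for H3 and 13 for H4. They were measured by bulk total RNA sequencing of blood from 15 male C57Bl/6 mice aged 10 months, labelled wild type. In 8 animals exposure was maternal, through drinking water with 3.07 µM tributyltin (TBT, an organotin). This gave the mothers a daily dose of 0.5 mg/kg and lasted up to weaning. The other 7 animals were vehicle controls. The labels give no other allele or agent, and 1 control, vehicle 3, carries a liver tumor label while no tumor status is given for the others. The TBT protocol text stands on the records of both groups, so the group was taken from each animal's exposure label.

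Replication-dependent histone genes supply the proteins that package newly copied DNA, and their mRNA is made mainly in S phase. Most lack introns, and their mRNA ends in a conserved stem-loop in place of a poly(A) tail. The stem-loop is bound by SLBP and the cut after it is guided by the U7 snRNP. Some of these genes can also yield spliced or polyadenylated mRNA, which has been described in cells that no longer divide. Mature red cells and platelets have no nucleus, but blood also carries immature red cells and platelets with RNA from their precursors.

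The annotation (GENCODE M21, GRCm38) shows the stem-loop in most of the models, and its sequence is shown because it is what marks this class of mRNA. A 6-base stem with a 4-base loop was searched for in the 150 bases after the stop codon. The search required GG at its start, TT at the start of the loop and CC at its end. These letters are therefore common to all forms below, and a form without them would have been missed. Such a stem-loop was found in 44 of the 49 members whose models reach at least 50 bases past the stop, at 21 to 58 bases from it (median 31). Stems are in capitals and loops in lower case, on the strand of the gene.

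Commonest form, 26 members: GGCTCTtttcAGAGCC
H4 form, 7 members: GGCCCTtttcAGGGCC
Form with a changed loop, 6 members: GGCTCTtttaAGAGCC
Form of Hist2h4 and Hist1h4i: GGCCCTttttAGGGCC
Form of Hist1h4j and Hist1h4b: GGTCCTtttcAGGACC
Form of Hist2h2ac: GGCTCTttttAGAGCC

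All 7 members with the second form encode H4. The 5 members without a match were Hist2h2be, Hist1h2br, Hist1h3g, Hist1h2bc and Hist1h4a, and the Hist1h2bc model is spliced, with 2 exons. The other 18 models stop within 50 bases of the stop codon, so the window could be read only in part or not at all. No match was found in them. Of the 67 members, 62 have models with a single exon.

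Promoters were compared because each histone type is known for its own control elements. RefSeq promoters (GRCm38.p6, 250 bases before to 50 after the start) were matched for 62 members and set against 27025 promoters of that length. CCAAT, on either strand, was present in 53 of 62 members (85.5%) and in 37.9% of all promoters. Every matched H1, H2A, H2B and H3 promoter held it, against 3 of 12 for H4 (25.0%). The letters GGTCCG, part of a known H4 element, were on either strand in 11 of 12 H4 promoters (91.7%), in 2 of the other 50 members and in 8.4% of all promoters. AAACACA, the core of the H1 box, was on either strand in 5 of 6 H1 promoters (83.3%) and in 7.1% of all. The octamer ATTTGCAT, on either strand, was in 7 of 18 H2A and 6 of 16 H2B promoters, in no H1, H3 or H4 promoter, and in 1.8% of all. TATAAA, on the gene's strand only, was in 30 of 62 members (48.4%) and in 8.9% of all. Each motif was counted on its own, with overlaps between motifs allowed. The 62 promoters are not all separate sequences. Windows of neighbours that start close together in opposite directions overlap, so a site can count for both genes. The octamer of Hist1h2ae and Hist1h2bg is such a site. Hist1h2ap was matched to the promoter of Hist1h2ao, which thus counts for both.

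The 150 bases before the start are printed for 6 members that lead the levels below or whose levels separated from those of a gene of the same type, read 5′ to 3′ on the strand of the gene. Capitals mark the motifs above on either strand.
Hist1h1c, chr13:23738657-23738806, plus strand: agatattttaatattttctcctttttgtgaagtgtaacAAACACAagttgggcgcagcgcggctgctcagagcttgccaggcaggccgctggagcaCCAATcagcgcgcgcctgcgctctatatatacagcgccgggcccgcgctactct
Hist1h1e, chr13:23622559-23622708, minus strand: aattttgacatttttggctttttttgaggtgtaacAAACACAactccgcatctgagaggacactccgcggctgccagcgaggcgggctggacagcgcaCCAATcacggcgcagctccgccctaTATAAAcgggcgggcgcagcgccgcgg
Hist1h2ac, chr13:23683960-23684109, minus strand: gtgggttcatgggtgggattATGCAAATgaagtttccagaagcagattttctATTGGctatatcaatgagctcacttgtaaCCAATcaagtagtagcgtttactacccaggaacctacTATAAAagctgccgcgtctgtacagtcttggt
Hist1h4m, chr13:21811596-21811745, plus strand: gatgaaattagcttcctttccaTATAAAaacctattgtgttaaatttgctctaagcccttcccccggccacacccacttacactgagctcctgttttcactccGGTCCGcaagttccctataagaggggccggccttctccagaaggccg
Hist1h4i, chr13:22041363-22041512, minus strand: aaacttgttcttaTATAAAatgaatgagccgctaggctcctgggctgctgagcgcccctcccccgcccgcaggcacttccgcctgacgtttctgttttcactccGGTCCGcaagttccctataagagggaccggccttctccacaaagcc
Hist1h4d, chr13:23581418-23581567, plus strand: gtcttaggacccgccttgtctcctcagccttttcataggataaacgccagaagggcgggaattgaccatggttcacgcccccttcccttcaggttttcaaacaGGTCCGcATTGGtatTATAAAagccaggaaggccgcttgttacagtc

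The promoters of Hist1h1c and Hist1h1e share a run of 15 bases, the longest of the 15 pairs among H1 promoters. Those of Hist1h4m and Hist1h4i share a run of 38 bases around GGTCCG, while Hist1h4m and Hist1h4d share at most 9. Hist1h4m and Hist1h4n are near copies, with a shared run of 285 bases, and Hist1h4j and Hist1h4k share 72. The median longest run over the 66 pairs of H4 promoters was 9 bases.

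The members lie in 4 clusters. Hist1, on chromosome 13 from 21715763 to 23934851, holds 54 members in 2 blocks. The block from 21715763 to 22043676 has 23 genes with a summed mean level of 50.6 CPM, and the block from 23531050 to 23934851 has 31 genes with 574.5 CPM. Levels are counts per 1000000 (CPM) on library sizes scaled by TMM (trimmed mean of M values), unless stated otherwise. Hist2, on chromosome 3 from 96219865 to 96270132, holds 10 members, Hist3, on chromosome 11 from 58948920 to 58956830, holds 2, and Hist4, on chromosome 6 from 136801553 to 136804415, holds 1. The 67 genes encode 29 distinct proteins. All 13 H4 genes encode the same protein of 103 residues, and the 12 H3 genes encode 2 proteins, whereas the 6 H1 genes encode 6 proteins of 209 to 223 residues.

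Histone mRNA was a small part of these libraries. The 15 libraries held 6031530 to 11985305 gene counts, haemoglobin genes took 28.7 to 50.8% of them, and the members took 0.0406 to 0.0739%, or 3741 to 6830 counts per library. No gene of the erythroid, platelet, neutrophil, monocyte, B cell, T cell and NK cell marker lists was at 0 in all libraries. TBT 2 and TBT 8 stood apart with TMM factors of 0.404 and 0.528. Vehicle 6, at 0.736, was the next lowest but lay close to vehicle 4 (0.807), and the other 11 ran from 0.951 to 1.58. By haemoglobin share it was vehicle 4 (44.1%) that lay close to TBT 8 (44.5%), with vehicle 6 at 34.8%. Comparisons between the groups are therefore given for all libraries, without TBT 2 and TBT 8, and without vehicle 6 as well. A TMM factor below 1 raises every CPM of its library, and values on both the TMM scale and that of all counts are therefore given where it matters.

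Of the 67 members, 32 had enough counts to be tested, 26 of them in Hist1, 3 in Hist2, 2 in Hist3 and the single gene of Hist4. The lowest mean level of a tested member was 0.945 CPM (Hist1h4f), and the highest of an untested one was 0.979 CPM (Hist1h2bp). Of the 35 untested members, 29 had at least 1 count. The other 6, Hist2h2aa1, Hist2h2aa2, Hist2h3b, Hist2h3c1, Hist2h2bb and Hist1h2aa, had 0 of 145568657 counts, which allows up to 0.0206 CPM of all counts for counting error only. For 5 of these 6 genes, all in Hist2, no 50-base word of the gene is free of a copy in another annotated gene, and all of their exon bases are overlapped by other gene models. How reads that map to several genes were counted is not given, so a 0 there cannot be told apart from reads left out. Hist1h2aa has 76.2% words of its own. It is known from testis, as are Hist1h2ba and Hist1h1t, which had mean levels of 0.0209 and 0.0700 CPM.

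Shared sequence touches most of the family, but Hist2h2be, Hist1h1a, Hist1h1b and Hist1h1t share no 50-base word with another annotated gene. In 34 members under 50% of the 50-base words were the gene's own, 9 of these were tested and their median mean level was 0.335 CPM. In the other 33 members, 23 were tested and the median was 2.14 CPM. Among the leading genes, Hist1h4m (10.2% own, shared most with Hist1h4n), Hist1h3i (12.4%, Hist1h3h) and Hist1h2bn (13.6%, Hist1h2bk) are uncertain for this reason, while Hist1h1c (91.5%) and Hist1h2ac (85.9%) are mostly unique. Exons of 24 members overlap another gene model, in 21 of them on the opposite strand, so without the strand setting reads of both could not be told apart. Hist1h1e and Hist1h2be share 496 exon bases on the same strand, and Hist3h2a overlaps Trim17.

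**Figure D1:**
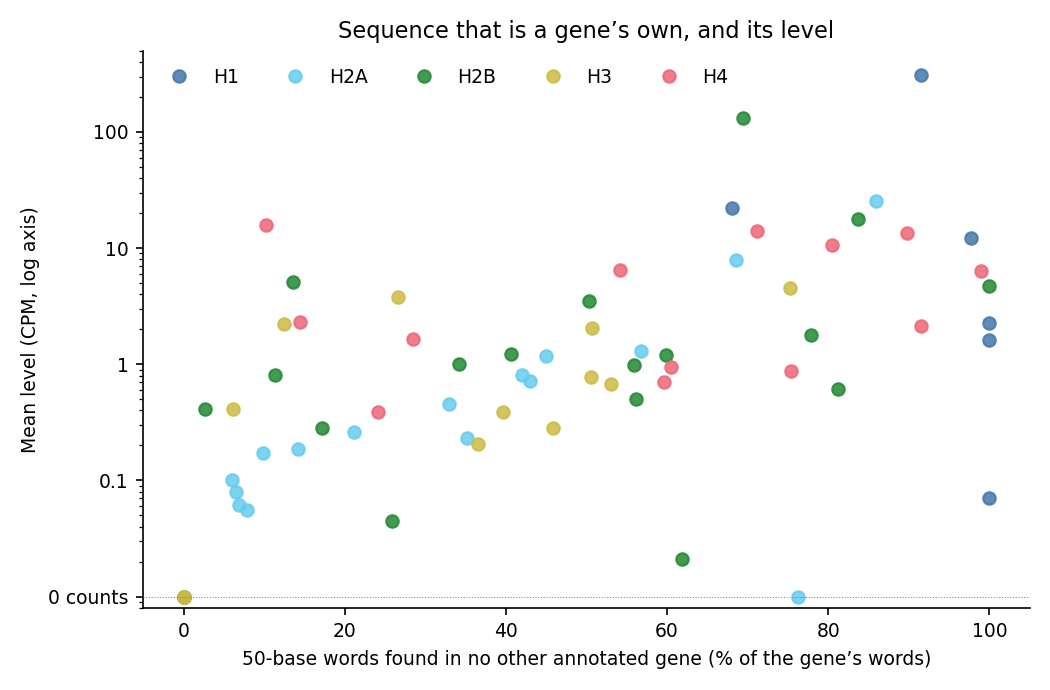
Mean level of each of the 67 members (CPM, log axis, points at the bottom line had 0 counts) against the percentage of its 50-base words found in no other annotated gene, coloured by histone type. The 5 genes without a word of their own lie on the line of 0 counts, and Hist1h1c, at 91.5%, is the highest point.

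**Figure D2:**
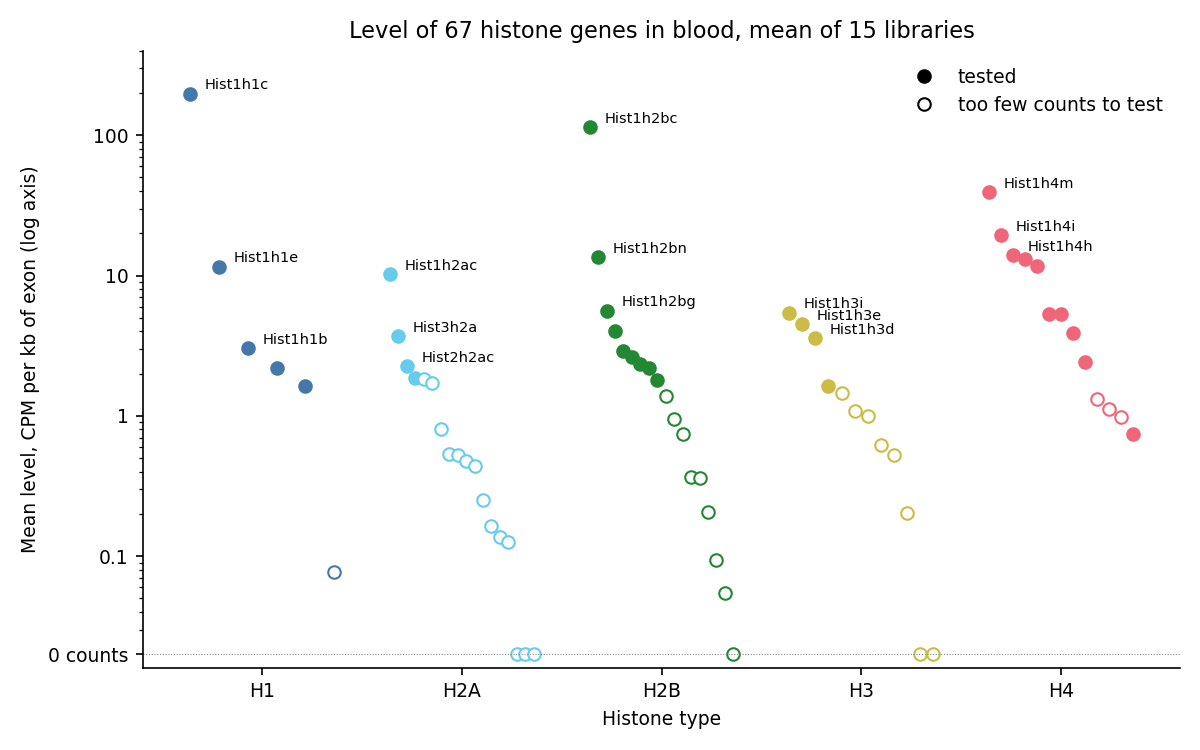
Mean level per kilobase of exon of the 67 members (CPM per kb, log axis) by histone type, with filled points for the 32 tested genes. In H1 and H2B the leading gene lies at least 8 times above the next, whereas the leading H3 genes lie close together.

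Levels between genes are compared as CPM per kilobase of exon, mean of 15 libraries. Hist1h1c stood first with 198 CPM per kb, followed by Hist1h2bc with 114, Hist1h4m with 39.2, Hist1h4i with 19.4 and Hist1h4h with 13.9. Before division by length, Hist1h1c made up 47.5% of the summed level of all members, Hist1h2bc a further 20.3%, and the first 10 genes 88.2%. Models with at least 300 bases after the stop codon had a median of 3.71 CPM per kb over 21 genes, and shorter models a median of 0.99 over 46 genes. The longer models also held more words of their own (median 75.4% against 34.7%), so length and shared sequence cannot be told apart here.

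Linker histone H1 binds DNA between nucleosomes. Hist1h1c was at 172 to 223 CPM in 6 TBT libraries, at 682 in TBT 2 and at 667 in TBT 8, against 220 to 437 CPM (median 305) in vehicle. The groups overlapped, and on the TMM scale the 2 TBT libraries lay above every control while 5 of the other 6 lay below every control. As CPM of all counts Hist1h1c was at 275 in TBT 2, within the controls, and at 351 in TBT 8. It was then at 190 to 314 in the other TBT libraries and 259 to 320 in vehicle. Its log2 fold change, TBT over vehicle, was 0.01 (SE 0.340, adjusted p = 0.999, edgeR). Hist1h1e ranged from 15.6 to 28.2 CPM in TBT (median 18.6) and from 16.8 to 31.2 in vehicle (median 24.5), with TBT 2 and TBT 8 among the low libraries (log2 fold change -0.28, SE 0.148, adjusted p = 0.826). Hist1h1b reached 4.84 CPM in TBT 1 against 0.964 to 2.63 in the other TBT libraries and 0.621 to 2.90 in vehicle. Hist1h1a was lower still, at 0.964 to 2.94 CPM in TBT and 0.350 to 2.22 in vehicle (log2 fold change 0.23, SE 0.315, adjusted p = 0.971). Hist1h1d, named after its values were seen, was at 5.84 CPM in TBT 2 and 3.85 in vehicle 7 against up to 20.6 in vehicle 3.

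H2A and H2B form the dimers on either face of the nucleosome. Hist1h2ac, the leading H2A gene, was at 65.1 CPM in TBT 2 and 67.7 in TBT 8, at 10.1 to 16.5 in the other TBT libraries and at 7.29 to 34.4 in vehicle (log2 fold change 0.10, SE 0.472, adjusted p = 0.994). Hist3h2a stood at 12.0 CPM in TBT 2 and 15.2 in TBT 8, 4.45 to 5.98 in the other TBT libraries and 6.78 to 10.7 in vehicle. Thus the 6 other TBT libraries all lay below the controls for Hist3h2a on the TMM scale, but not as CPM of all counts. With all 8 the groups overlapped (log2 fold change -0.23, SE 0.238, adjusted p = 0.960). On the TMM scale Hist2h2ac went the other way, at 0.584 CPM in TBT 2 and 0.579 in TBT 8. Hist2h2ac was at 0.776 to 1.46 in the other TBT libraries and 0.350 to 2.22 in vehicle. Its values in TBT 2 and TBT 8 rest on 2 and 3 counts.

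Hist1h2bc, the leading H2B gene, was at 305 CPM in TBT 2 and 287 in TBT 8, 55.9 to 95.8 in the other TBT libraries and 56.6 to 177 in vehicle, where the lowest was vehicle 3 (log2 fold change -0.08, SE 0.399, adjusted p = 0.994). Hist1h2bn followed with 12.6 and 8.68 CPM in TBT 2 and TBT 8, 1.73 to 3.72 in the other TBT libraries and 2.98 to 10.1 in vehicle. Hist1h2bg was at 7.91 CPM in TBT 8 alone and at 2.10 to 3.80 in the other 7 TBT libraries, against 2.80 to 3.88 in vehicle. Hist3h2ba, the other Hist3 gene, was at 5.26 CPM in TBT 2, 3.09 in TBT 8 and 0.778 to 1.74 in the other TBT libraries, against 0.876 to 2.42 in vehicle (log2 fold change 0.25, SE 0.377, adjusted p = 0.976). Hist2h2be, a gene without a stem-loop match in its window, ranged from 3.13 to 5.88 CPM in TBT and from 2.63 to 5.88 in vehicle, with nearly full overlap.

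Pairs of H2A and H2B genes that start close together in opposite directions are a feature of these clusters. There were 13 such divergent pairs within 1000 bases, 12 of H2A with H2B and 1 of H2B with H3. In the pair with starts 251 bases apart, Hist1h2bc lay above Hist1h2ac per kilobase in 15 of 15 libraries, by 9.06 to 16.7 times (median 11.9). Hist1h2bg lay above Hist1h2ae in 14 of 15 libraries. Hist2h2be lay above Hist2h2ac per kilobase in 5 of 15, and Hist2h2ac was the higher in 10 (median ratio of Hist2h2be to Hist2h2ac 0.834). That order depends on the model lengths of 2620 and 520 bases. In counts Hist2h2be had 733 over all libraries and Hist2h2ac 194. Another gene model overlaps 27.1% of the exon bases of Hist2h2ac. The counts of Hist1h2bc and Hist1h2ac were 16808 and 3113, with models of 1156 and 2482 bases.

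H3 and H4 form the central tetramer. The 3 leading H3 genes were close in level, with Hist1h3i at 5.45, Hist1h3e at 4.51 and Hist1h3d at 3.60 CPM per kb. Hist1h3i stood at 4.67 CPM in TBT 2 and 3.66 in TBT 8 against 1.09 to 2.16 in the other TBT libraries and 1.53 to 3.02 in vehicle. Hist1h3d stood at 6.42 CPM in TBT 2 and 13.7 in TBT 8 against 1.65 to 3.40 and, in vehicle, 2.43 to 7.96. Hist1h3e was reversed, with its lowest values of 1.17 and 1.74 CPM in TBT 2 and TBT 8, 2.51 to 6.25 in the other TBT libraries and 3.37 to 6.94 in vehicle (log2 fold change -0.50, SE 0.264, adjusted p = 0.827), the largest difference among tested members. Hist1h3f showed neither pattern, at 2.63 CPM in TBT 2 and 0.193 in TBT 8 against 1.54 to 3.42 in the other TBT libraries and 1.15 to 2.82 in vehicle. In TBT 2 and TBT 8 the counts were few, 4 and 9 for Hist1h3e and 9 and 1 for Hist1h3f.

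H4 genes all encode the same protein, yet they separated by library. Hist1h4m stood at 46.1 CPM in TBT 2 and 38.4 in TBT 8, at 7.85 to 10.1 in the other TBT libraries and at 8.05 to 19.5 in vehicle (log2 fold change 0.21, SE 0.440, adjusted p = 0.983). Hist1h4i was at 28.9 and 31.8 CPM against 5.90 to 11.8 and, in vehicle, 7.98 to 19.0. Hist1h4n, the near copy of Hist1h4m, was at 3.80 and 5.59 CPM against 0.699 to 1.66 and, in vehicle, 2.04 to 3.12. Reads of Hist1h4m and Hist1h4n may have been confused, since only 10.2% and 14.4% of their words are their own.

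Other named H4 genes did not have both TBT 2 and TBT 8 above all controls. Hist1h4c had the smallest p of all members, at 7.25 to 13.6 CPM in TBT (median 9.09) and 7.01 to 15.2 in vehicle (median 12.4), with a log2 fold change of -0.30 (SE 0.155, unadjusted p = 0.0703, adjusted p = 0.825). Hist1h4h was at 4.37 to 9.07 CPM in TBT, with its highest value of all libraries in TBT 8 and 5.26 in TBT 2, and at 5.96 to 8.18 in vehicle. Hist1h4f was at 0.386 to 2.16 in TBT and 0.350 to 1.39 in vehicle. Hist4h4, in the Hist4 cluster, was at 1.17 to 3.72 CPM in TBT and 1.52 to 2.82 in vehicle (log2 fold change 0.04, SE 0.233, adjusted p = 0.994). Hist1h4d, named after its values were seen, was lowest in TBT 2, at 6.13 CPM, against 12.3 in TBT 8, 11.9 to 18.9 in the other TBT libraries and 9.29 to 18.0 in vehicle.

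**Figure D3:**
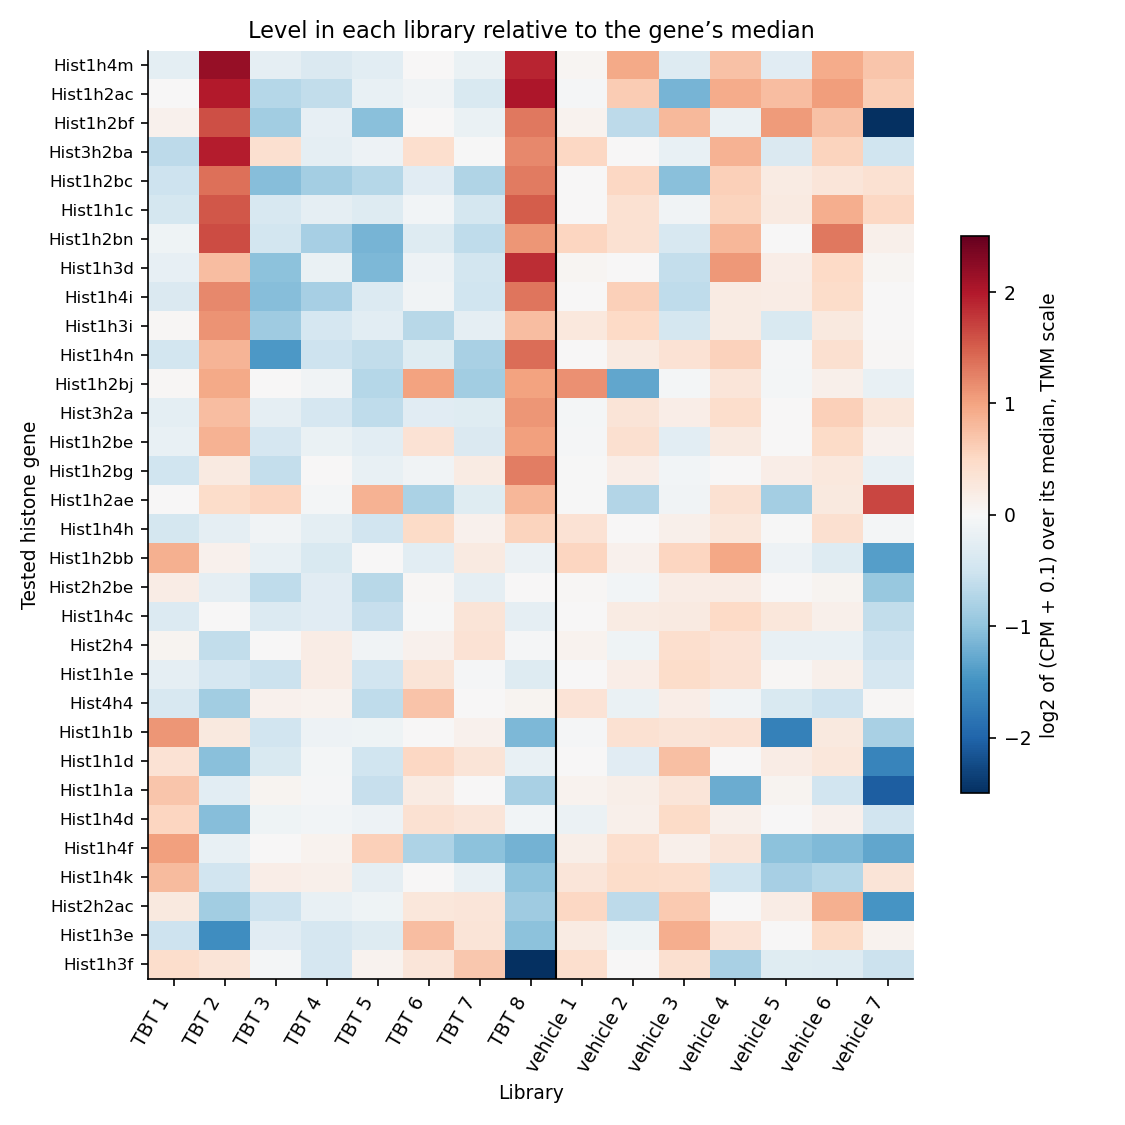
Each of the 32 tested members (rows) in the 15 libraries (columns), as log2 of CPM plus 0.1 over the gene's median, TMM scale, ordered by the mean log2 ratio of TBT 2 and TBT 8 to the median of the other 13. Genes from Hist1h4m to Hist3h2a and Hist1h2be are red in both TBT 2 and TBT 8, and genes near the bottom, such as Hist1h3e, are blue in both.

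No member passed the test between TBT and vehicle over all libraries. Over the 15 libraries edgeR called 0 of 13364 genes at an adjusted p under 0.05 (0% of those tested, smallest adjusted p 0.207), and 0 of the 32 tested members. At an unadjusted p under 0.05 it was 846 genes (6.33%) and 0 of 32 members. DESeq2 called 19 genes and 0 members. The members' log2 fold changes ran from -0.50 to 0.25, with 14 above 0, 18 below and a median of -0.02, beside 0.05 over all tested genes. The median standard error was 0.322 for members and 0.195 for all tested genes. For Hist1h1c, with 1904 to 3459 counts in each library, the error of 0.340 came down to 0.142 without TBT 2 and TBT 8. No member had groups that did not overlap (0 of 32, against 0.112% of all tested genes). Nothing in the labels says that animals came from separate litters, so p-values measure the spread between these animals.

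**Figure D4:**
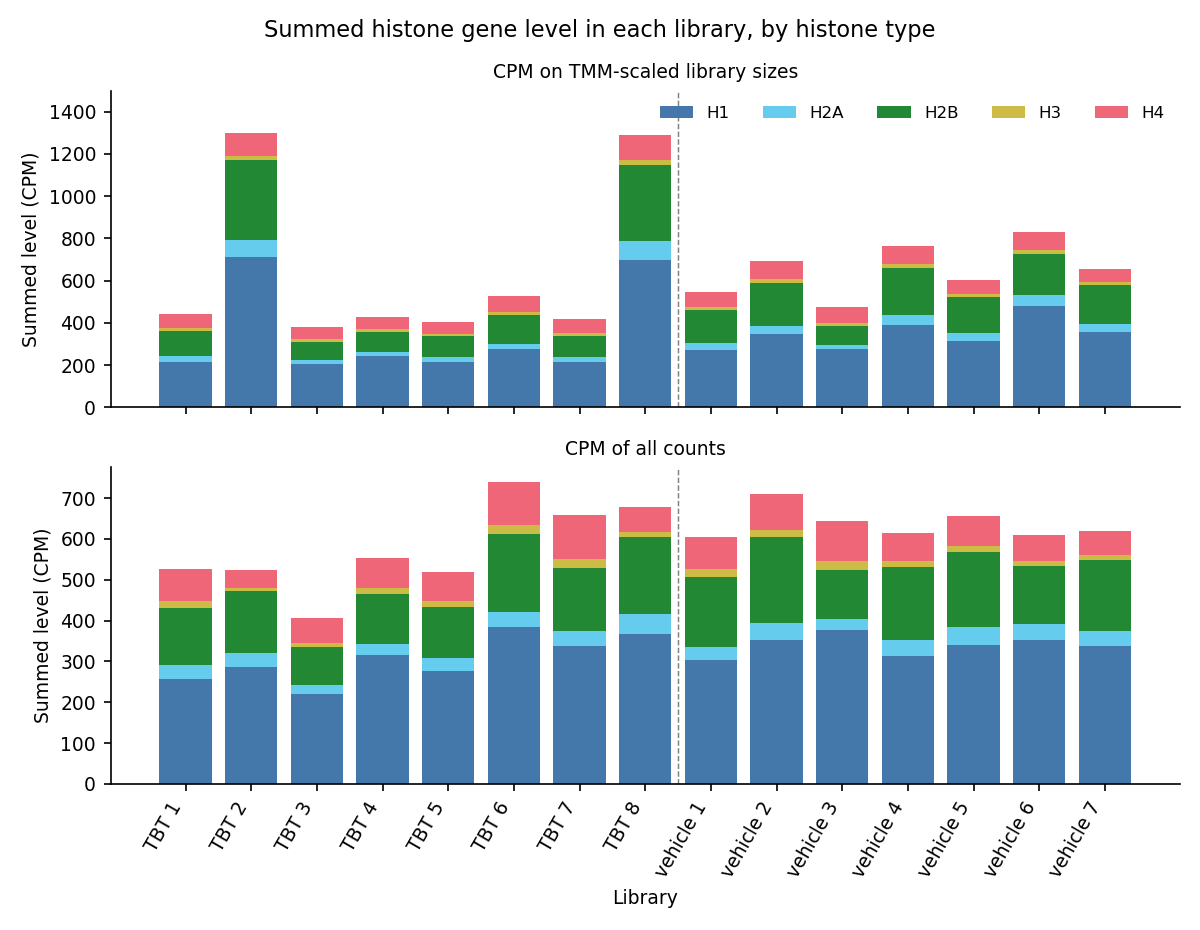
Summed level of the members in each library, stacked by histone type, as CPM on TMM-scaled library sizes (top) and as CPM of all counts (bottom). TBT 2 and TBT 8 are the tallest bars in the top panel, at 1299 and 1287 CPM, and are within the range of the other libraries in the bottom panel.

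The summed level was 647 ± 401 CPM over the 8 TBT libraries and 652 ± 123 over the 7 vehicle libraries (mean ± SD). TBT 2 and TBT 8 were at 1299 and 1287 CPM, the other TBT libraries at 378 to 526 and vehicle at 474 to 830. As CPM of all counts the sums were 575 ± 108 in TBT and 637 ± 37.6 in vehicle, with TBT 2 at 524 and TBT 8 at 678 within the range of 406 to 739 over all libraries. The difference between the groups was smaller than the spread within TBT on both scales. By type, on the TMM scale, the ratio of group means was 0.997 for H1, 1.05 for H2A, 0.974 for H2B, 0.940 for H3 and 0.996 for H4. Without TBT 2 and TBT 8 it was 0.655, 0.633, 0.597, 0.816 and 0.828, and without vehicle 6 as well 0.700, 0.675, 0.608, 0.834 and 0.843. As CPM of all counts, without TBT 2 and TBT 8, it was 0.881, 0.861, 0.808, 1.08 and 1.09, so that H3 and H4 lay above 1 on that scale.

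On the TMM scale, 14 of the 32 tested members were more than 1.5 times the median of the other 13 libraries in both TBT 2 and TBT 8, beside 15.8% of all tested genes. They were Hist1h1c, Hist1h2ac, Hist3h2a, 6 H2B genes (Hist1h2bc, Hist1h2be, Hist1h2bf, Hist1h2bj, Hist1h2bn and Hist3h2ba), Hist1h3d, Hist1h3i, Hist1h4i, Hist1h4m and Hist1h4n. Another 10 were below the median in both, beside 41.8% of all tested genes, namely Hist1h1a, Hist1h1d, Hist1h1e, Hist2h2ac, Hist1h3e, Hist1h4c, Hist1h4d, Hist1h4f, Hist1h4k and Hist2h4. The other 8 did neither. This split is a description made with the libraries' standing known, and it depends on the scale. With RLE size factors 14 members were above 1.5 in both and 9 below 1, but as CPM of all counts it was 1 and 19.

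Ratios of counts within a library do not depend on any scaling. Hist1h1c over Hist1h1e was 40.3 in TBT 2 and 37.2 in TBT 8, against 7.80 to 11.5 in the other TBT libraries and 7.05 to 19.8 in vehicle. Hist1h4m over Hist1h4d, which encode the same protein, was 7.52 and 3.11 against 0.454 to 0.723 and, in vehicle, 0.448 to 1.77. Hist1h3d over Hist1h3e was 5.50 and 7.89 against 0.544 to 1.28 and, in vehicle, 0.350 to 1.73. Some of these ratios rest on few reads. In TBT 2 and TBT 8 Hist1h3e had 4 and 9 counts, Hist1h4d 21 and 64, and Hist1h1e 58 and 93. In all 3 ratios TBT 2 and TBT 8 lay above every other library, and vehicle 3, the animal with the tumor label, was the lowest of the controls. Vehicle 3 was also the lowest control in haemoglobin share (28.9%) and in the summed erythroid (258300 CPM) and platelet (6108 CPM) levels. The part of any of these in the ratios was not tested. The ratio of the divergent neighbours Hist1h2bc and Hist1h2ac did not separate them, at 4.69 and 4.24 within 4.22 to 7.76 in the other 13 libraries. These pairs were chosen after their values were seen.

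Markers of other cells moved with these libraries. The summed level relative to the median of the other 13 was 3.95 in TBT 2 and 2.69 in TBT 8 for the 24 erythroid genes in the table, 3.16 and 2.09 for 16 genes of nucleated red cell precursors, 3.68 and 3.47 for 22 platelet genes and 3.16 and 2.32 for 42 genes of S phase and proliferation. E2f2, Nusap1 and Ube2c made up 72.9% of the S phase sum in TBT 2, and by gene 26 of the 42 were above the median in both libraries and 7 below in both, Mcm5 and Pold1 among them. It was 0.878 and 0.593 for 18 mature neutrophil genes, 0.540 and 0.619 for 13 B cell genes and 0.920 and 0.630 for 13 T cell genes. For 13 monocyte genes it was 1.26 and 1.65, and for 10 NK cell genes 0.730 and 0.719. The monocyte sum was mostly Lyz2 and F13a1, which the platelet list also holds, and 7 of the 13 monocyte genes were below the median in both libraries and 2 above. All 22 platelet and 23 of 24 erythroid genes were above it in both, and all 13 B cell genes below. The summed erythroid level was 258300 to 630700 CPM in vehicle and 212000 to 1482000 in TBT, and the summed platelet level was 6108 to 17380 and 6160 to 36010. No gene of these lists was at 0 in all libraries. Their part in the histone result was not tested. In bulk blood, more cells of a type and more RNA per cell cannot be told apart.

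**Figure D5:**
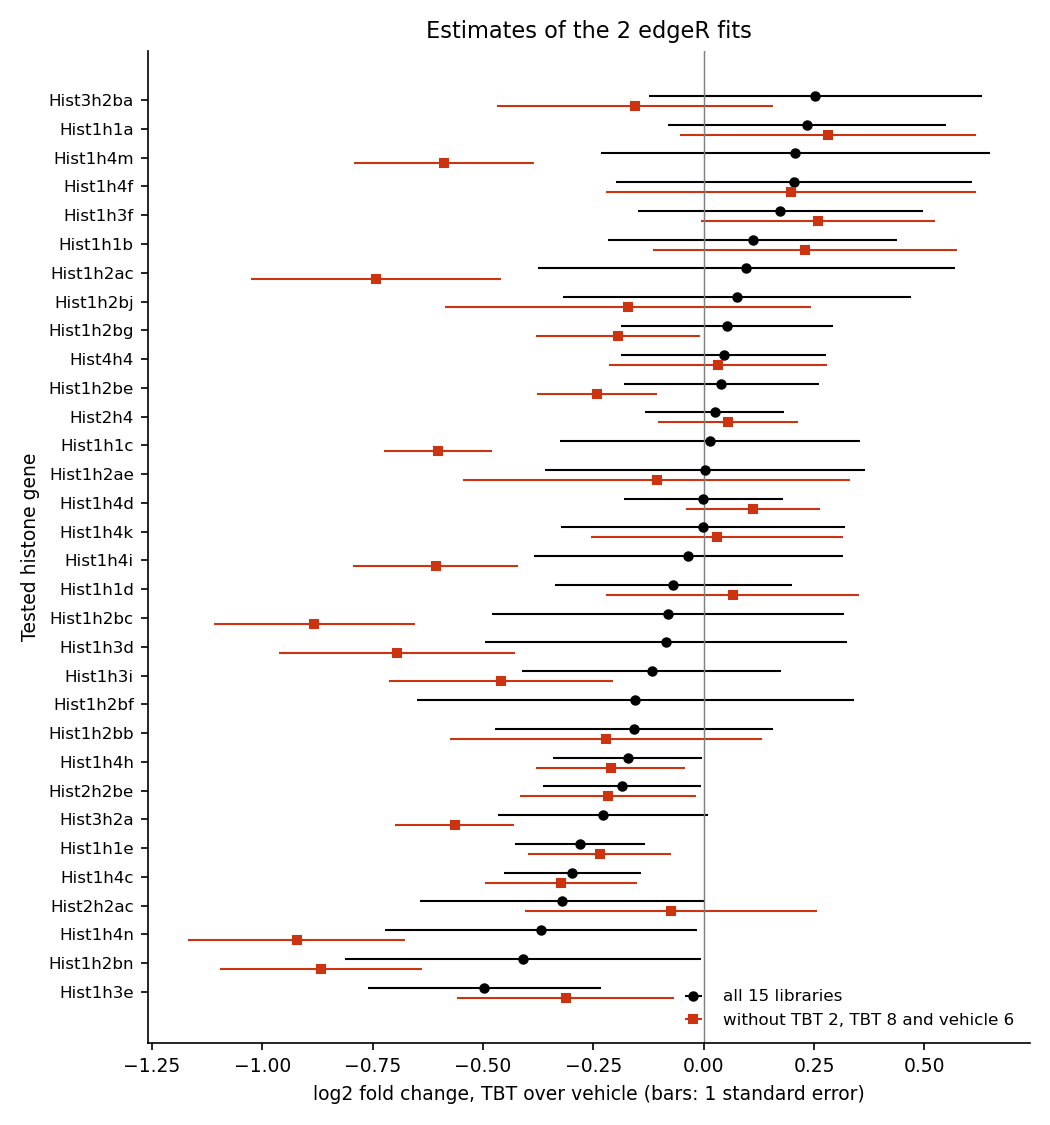
Log2 fold change, TBT over vehicle, of the 32 tested members with bars of 1 standard error, from all 15 libraries (black circles) and without TBT 2, TBT 8 and vehicle 6 (red squares). Hist1h2bf was not tested in the smaller set, and genes such as Hist1h1c, Hist1h2ac and Hist1h4m move from near or above 0 to -0.60, -0.74 and -0.59.

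Without TBT 2 and TBT 8, a set chosen after the data were seen, 5 members passed the test. With 6 TBT and 7 vehicle animals edgeR called 462 of 13645 genes (3.39%) and 5 of 32 members, all lower in TBT. The log2 fold change of Hist1h1c was -0.71 (SE 0.142, adjusted p = 0.0330), of Hist3h2a -0.63 (SE 0.137, adjusted p = 0.0366), of Hist1h2bn -1.06 (SE 0.255, adjusted p = 0.0400), of Hist1h4n -0.95 (SE 0.233, adjusted p = 0.0424) and of Hist1h2bc -0.90 (SE 0.212, adjusted p = 0.0425). At an unadjusted p under 0.05 it was 10 of 32 members, all lower, beside 11.3% of all tested genes lower and 19.7% in either direction. The members' median was -0.23, with 23 of 32 below 0, beside 0.02 over all tested genes. In the same fit 13 of 22 platelet genes were called, 1 of 23 erythroid genes (Gata1) and 2 of 16 genes of nucleated red cell precursors (Gata2 and Nfe2), all lower, with list medians of -0.85, -0.49 and -0.45. Their part in the histone result was not tested.

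The calls were lost when vehicle 6 was left out too. Without TBT 2, TBT 8 and vehicle 6, with 6 animals in each group, edgeR called 7 of 13590 genes (0.0515%) and 0 of 31 members. At an unadjusted p under 0.05, 9 of 31 members were lower in TBT and none higher, beside 9.96% of all tested genes lower and 17.0% in either direction. The members' median log2 fold change was -0.22, beside 0.02 over all tested genes, and 22 of 31 were below 0. Hist1h1c was at 172 to 223 CPM in TBT and 220 to 345 in vehicle (log2 fold change -0.60, SE 0.123, adjusted p = 0.0618). Hist3h2a was at 4.45 to 5.98 CPM in TBT and 6.78 to 9.58 in vehicle (log2 fold change -0.56, SE 0.135, adjusted p = 0.0716). On the TMM scale its groups and those of Hist1h4n did not overlap, 2 of 31 members beside 1.29% of all tested genes. As CPM of all counts the groups of both genes overlapped in these libraries. Hist3h2a was then at 8.88 in TBT 7 and 8.12 in vehicle 7, and Hist1h4n at 2.33 in TBT 6 and 1.99 in vehicle 7. Hist1h4n had a log2 fold change of -0.92, Hist1h2bc -0.88, Hist1h2bn -0.87, Hist1h2ac -0.74, Hist1h3d -0.70, Hist1h4i -0.61 and Hist1h4m -0.59, with adjusted p from 0.0827 to 0.202. All 9 are among the 14 members that were above 1.5 in TBT 2 and TBT 8. The same 6 and 6 libraries had a median log2 fold change of -0.46 over 23 erythroid genes and -0.77 over 22 platelet genes, and that too was not tested as a part of the histone result. The summed level of all members in these libraries was 432 ± 51.0 CPM in TBT and 623 ± 104 in vehicle. As CPM of all counts it was 567 ± 117 and 642 ± 38.9.

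The machinery around the histone genes did not pass the test over all libraries either. edgeR called 0 of 15 genes of histone gene transcription (8 higher and 7 lower in TBT), 0 of 22 of histone mRNA processing and decay (11 and 11), 0 of 23 histone chaperones (15 and 8), 0 of 9 histone variant genes (4 and 5) and 0 of 36 genes of S phase and proliferation (28 and 8), where 0% of all genes were called. Without TBT 2, TBT 8 and vehicle 6 the S phase tally turned round, to 11 higher and 25 lower, and that of the chaperones came to 11 and 12. Without TBT 2 and TBT 8 alone the S phase list had 26 of 36 lower, and 1 gene of these 5 lists was called, the decapping enzyme Dcp2 (log2 fold change 0.30, SE 0.0788, adjusted p = 0.0430), beside 3.39% of all tested genes. The stem-loop binding protein Slbp was at 8.29 to 15.7 CPM in TBT and 9.98 to 14.7 in vehicle, and the coactivator Npat at 12.5 to 23.0 and 14.2 to 20.1. The U7 snRNP subunits Lsm10 and Lsm11 were at 1.38 to 3.89 and 2.89 to 6.02 CPM in TBT and at 1.15 to 3.68 and 3.00 to 5.27 in vehicle. Slbp was at 9.35 CPM in TBT 2 and 8.29 in TBT 8, in the lower part of its range. Of the 23 genes of histone mRNA processing and decay, 17 were below the median of the other 13 libraries in both. Another 3 were above in both, and of all tested genes 41.8% were below in both. A link between Slbp and the histone levels was not tested.

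Histone variants, which are made outside S phase as well, did not all move together in TBT 2 and TBT 8. H3f3a, an H3 variant gene, was at 560 CPM in TBT 2 and 330 in TBT 8 against a median of 192 in the other 13 libraries, while H3f3b, which encodes the same protein, was at 141 and 156 against 125. H2afz was at 23.7 and 25.9 CPM against 19.9, H2afx at 14.02 and 12.9 against 5.86, and H1f0, a linker variant of resting cells, at 1.17 and 4.63 against 4.15. Among S phase genes, Mki67 was at 346 and 311 CPM against 111 and Top2a at 69.2 and 60.8 against 22.6, but Pcna at 9.93 and 15.8 against 12.5. Of the 11 variant genes, 6 were above the median of the other 13 libraries in both TBT 2 and TBT 8, and 1 was below in both. For the 42 S phase genes it was 26 and 7, and for the 32 tested members 16 and 10.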

How the data were processed

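The submitters' processing notes name Trim Galore for trimming, HISAT2 with the build mm10 for alignment and featureCounts for counting. No version, annotation release, strand setting or treatment of reads with several matches is given in the sources used here. The RNA was DNase-treated and prepared with a stranded total RNA kit, per the labels. The authors deposited whole-number counts per gene, with 1 column for each animal, matched by the sample description (0 columns of other samples).

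TBT and vehicle were compared in R 4.3.3 by edgeR 4.0.16 (TMM, filterByExpr by group, robust quasi-likelihood fit, Benjamini-Hochberg threshold of 0.05 over every tested gene). DESeq2 1.42.0 was an alternative, and the edgeR script was tested on simulated data. Members were matched by gene identifier to GENCODE M21 on GRCm38, and 62 of 67 to RefSeq promoters (GRCm38.p6). Hist1h2ao and Hist1h2ap were matched to the same promoter. Words of 50 bases were compared over all annotated transcripts.

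The members and lists were chosen with earlier results of these data known. Named members are the 3 highest per kilobase of each histone type, the 5 of smallest p above and below 0, and those of Hist3 and Hist4. Alternatives were other scalings, no filter, haemoglobin left out, a replicate block, each library left out, TBT 2, TBT 8 and vehicle 6 left out together, and TBT 2 and TBT 8 left out alone (chosen after seeing the data). No test was made on sums or lists.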

Additional observations from a re-analysis of the deposited data

Results flagged for a closer look

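In 4 of 58 sets of values examined (23 named genes and 6 summed levels, in each of the 2 groups), a single animal stood apart from the rest of its group by Dixon's criterion, where chance gives about 1 in 20. Hist1h1b was at 4.84 CPM in TBT 1, with the next TBT animal at 2.63. Hist1h2bg was at 7.91 CPM in TBT 8, with the next at 3.80. Hist1h3d was at 13.7 CPM in TBT 8, with the next at 6.42. Hist2h2be was at 2.63 CPM in vehicle 7, the library with the fewest counts, with the next vehicle animal at 4.88.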

How the results depend on the processing

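Leaving out TBT 2 and TBT 8, an alternative added after seeing the data, gave 5 called members, and every other alternative gave 0. The members' median log2 fold change (-0.02) ran from -0.2345 without TBT 2 and TBT 8 to 0.0221 without TBT 3, and was also above 0 without TBT 5 or vehicle 4. With the replicate block it was -0.2324. It was -0.17 without TBT 2 and -0.20 without TBT 8. The log2 ratio of summed levels (-0.011) ran from -0.59 without TBT 2 and TBT 8 (-0.53 without vehicle 6 as well) to 0.0723 without TBT 3, and was -0.15 as CPM of all counts. All these shifts but that to -0.59 were within 1 SD of the animals in the main comparison. That spread includes TBT 2 and TBT 8, and the SD of the summed level in TBT was 401 CPM with them and 51.0 without. It therefore cannot judge the shifts made by leaving these libraries out. The count over all genes was 0 in the main comparison, 462 without TBT 2 and TBT 8, 7 without vehicle 6 as well, 19 with DESeq2 and 2 without the filter, and the cause was not tested. Of 527 log2 fold changes of single named members under an alternative, 46 had another sign than in the main comparison. Members that were not named are outside this tally, and some of them changed sign too. Hist1h2be, for example, went from 0.04 to -0.24 without TBT 2, TBT 8 and vehicle 6. Hist1h1c came to -0.0066 with haemoglobin genes left out and to -0.0475 with upper-quartile factors, and Hist1h4i to 0.0225 with DESeq2. Without TBT 2, TBT 8 and vehicle 6, Hist1h1c came to -0.60, Hist1h2ac to -0.74, Hist1h2bg to -0.19, Hist1h4m to -0.59 and Hist3h2ba to -0.16. Without TBT 2 and TBT 8 alone these were -0.71, -0.85, -0.23, -0.68 and -0.22. With 1 library left out at a time the values ran from -0.25 to 0.12 for Hist1h1c, -0.14 to 0.19 for Hist1h1b, -0.28 to 0.22 for Hist1h2ac, -0.38 to 0.033 for Hist1h2bc, -0.20 to 0.14 for Hist1h2bg, -0.58 to 0.12 for Hist1h3d, -0.16 to 0.31 for Hist1h4m, -0.34 to 0.0871 for Hist1h4i, -0.0322 to 0.41 for Hist3h2ba, -0.0544 to 0.33 for Hist1h4f and -0.13 to 0.13 for Hist4h4. Leaving out TBT 2 or TBT 8 made Hist1h1c, Hist1h2ac and Hist1h4m negative.

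Replicate numbers 1 to 7 stand in both groups' titles with no pairing stated. Same-numbered animals deviated with correlations of -0.235 to 0.506, which cannot settle whether they share more than a number. With the number as a replicate block, which leaves out TBT 8, 0 of 31 members were called, and the median was -0.23 with 24 members below 0. Among the named members the sign changed for Hist1h1c (-0.44), Hist1h2ac (-0.44), Hist1h2bg (-0.21), Hist1h4m (-0.28) and Hist4h4 (-0.0475). At an unadjusted p under 0.05 in that edgeR fit it was 6 of 31 members (19.4%), all lower. Beside them stood 1096 of 13271 genes in either direction, 371 of them lower. Depth limits the 35 untested members and those near 1 CPM.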
